A study of Macaca mulatta with 20 samples.

Results

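Liver biopsies taken at enrolment, before any study diet had begun, were compared between the rhesus monkeys (Macaca mulatta) later fed a control diet (Control) and those later placed under caloric restriction (CR, a diet with fewer calories). The 10 year 0 libraries were chosen from the 20 of the series by the year and the diet in the labels. They comprise 5 Control libraries (animals 001, 005, 006, 009 and 010) and 5 CR libraries (animals 004, 007, 008, 011 and 012). The other 10 libraries come, by their labels, from the same animals after 2 years on the diets and were used only to follow the year 0 differences. Each library was made from total RNA of 1 biopsy and sequenced from both ends on an Illumina HiSeq2000. Neither arm had received a diet at this biopsy, so CR and Control here name an assignment and not a treatment. Age, sex, housing, relatedness and batch are not given in the labels used here.

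The liver holds hepatocytes, which secrete the plasma proteins and carry most of the organ's metabolism, beside resident macrophages (Kupffer cells), other myeloid cells, lymphocytes, sinusoidal endothelium, stellate cells and bile duct cells. Macrophages and dendritic cells take up particles through pattern receptors and show peptides to helper T cells on MHC class II molecules, whose assembly needs the invariant chain CD74 and the peptide exchanger DM. In whole tissue, fewer cells of a type and less RNA per cell cannot be told apart. Gene roles below are background as known from human or mouse.

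Library totals ran from 24712214 to 31440640 estimated counts at year 0, and albumin took 10.6% to 15.6% of them. Hepatocyte genes were high in every library. In TPM, a level scaled by transcript length and library depth, the transthyretin gene TTR ran from 7362 to 11695 in Control and from 9515 to 10312 in CR. The kidney gene UMOD and the pancreas genes PRSS1 and PNLIP were listed at 0 in all 10 libraries. The muscle actin gene ACTA1 reached at most 0.400 TPM. The scaling factors of the trimmed mean of M values (TMM) ran from 0.920 to 1.04 in Control and from 0.981 to 1.07 in CR.

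The libraries were not equally distant from one another. Each of the 10 was most like the library with the neighbouring animal number, so that they fell into 5 pairs: 001 with 004, 005 with 006, 007 with 008, 009 with 010, and 011 with 012. Correlations of log2 CPM, counts scaled to equal library size, ran from 0.979 to 0.987 within these pairs. They ran from 0.949 to 0.974 in the 16 other pairs of libraries from 1 arm and from 0.945 to 0.973 in the 24 other pairs across arms. Neighbours were not the same library deposited again, since between 43.9% and 56.0% of genes differed beyond counting error (binomial test per gene, unadjusted p under 0.05). Of the 5 pairs, 4 lie within an arm and 1, formed by 001 (Control) and 004 (CR), spans both.

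**Figure D1:**
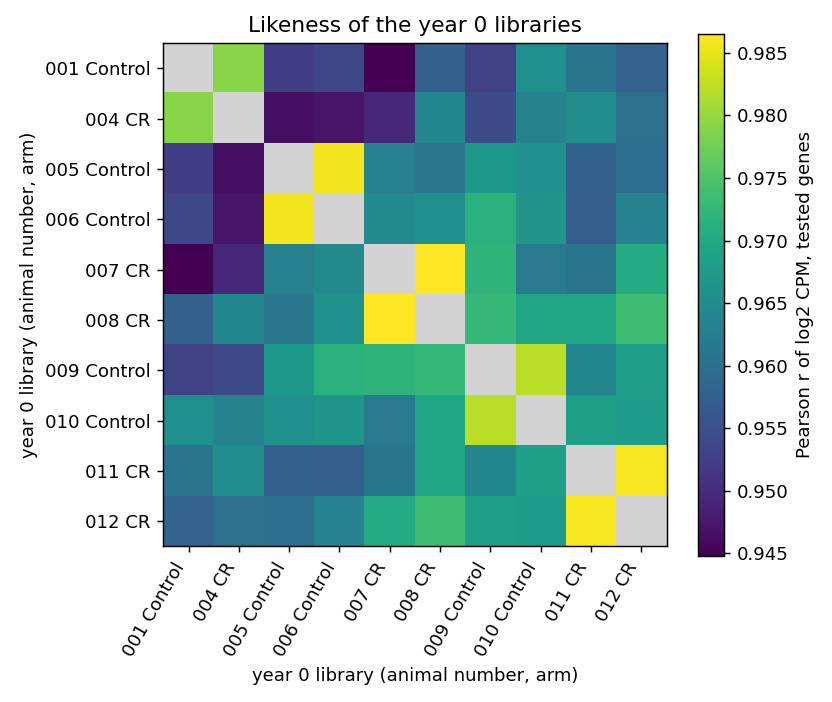
Pearson correlation of log2 CPM between the year 0 libraries, ordered by animal number on both axes, with the arm beside the number and the diagonal in grey. The 5 squares beside the diagonal hold the neighbouring numbers (0.979 to 0.987), and all other squares lie at or below 0.974.

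Some genes were nearly on or off by pair. They were chosen after their values were seen. COL7A1, a collagen of anchoring fibrils, stood at 189 CPM in 011 and 178 CPM in 012, and at most at 1.98 CPM in the other 8 year 0 libraries. HEBP2, a heme-binding protein gene, was low in the same pair (1.91 and 1.495 CPM) and lay between 20.4 and 32.5 CPM elsewhere. ENPP3, an ectonucleotidase, was at 16.1, 19.02, 27.4 and 26.3 CPM in 005, 006, 007 and 008 and at most at 0.502 CPM in the other 6. Not all of these levels followed the animal number to year 2. HRASLS2, a phospholipase of the HRASLS family, stood at 152 and 155 CPM in 005 and 006 at year 0. In the libraries with the same numbers at year 2 it stood at 0.856 and 0.413 CPM. In 009 and 010 HRASLS2 was high at both biopsies, at 136 and 119 CPM at year 0 and 69.2 and 144 CPM at year 2. COL7A1 was at 0.874 and 0.595 CPM in 011 and 012 at year 2. An animal's own year 2 library ranked between 2 and 19 among the 19 other libraries in likeness to its year 0 library. What neighbouring libraries share (animal, kin, cage, handling or day) was not tested, and the labels count every animal number as 1 animal. The number of calls is therefore also given with neighbours of an arm summed, as are the leading genes and lists, and 1 paragraph gives the difference inside the pair of 001 and 004. These alternatives were added after seeing the data. The other SEs and adjusted p-values below count each animal of the labels as 1 replicate.

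The arms differed before either diet began, most clearly in CD180 and CD84, a pair of leukocyte receptors, and in MAMU-DMA, a gene of MHC class II presentation, each higher in the animals assigned to CR. Of the 32 genes called, 8 belong to the lists of macrophage markers, myeloid receptors and class II presentation, which were chosen with earlier results of these data known. With edgeR's quasi-likelihood test and Benjamini-Hochberg adjustment over 13244 genes, 32 genes (0.242% of those tested) passed an adjusted p of 0.05. Of them, 28 (0.211%) were higher in CR and 4 (0.0302%) were lower. Each of the 32 had 5 CR values on 1 side of all 5 Control values. Over all genes tested, 384 (2.9%) had every CR library above every Control library, and 278 (2.1%) had every CR library below. The count depended on single animals: 340 genes were called without 001, 93 without 004 and 44 without 009. Without 011 there were 4 calls, and without any other animal 3. CD180, MAMU-DMA and CD84 were called in all 10 of these fits, and the other 29 in 1 to 4 of them. With neighbours of an arm summed, which leaves 3 against 3, 0 genes were called (lowest adjusted p = 0.25, edgeR), and 1006 of 13929 genes had an unadjusted p under 0.05, among them all 32. A limma voom fit that carried the neighbour pair as a random block (correlation within pairs 0.521) called 52 genes, 24 of the 32 among them, and none of the 4 lower genes. The 32 were picked in these same libraries, so finding them again in either fit is no separate support.

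Receptors and signalling genes of myeloid cells included the call of lowest p. CD180, a Toll-like receptor relative of macrophages and B cells, measured 2.77, 2.80, 2.36, 3.65 and 3.01 CPM in Control (animals 001, 005, 006, 009 and 010, in this order throughout). It measured 6.55, 8.50, 9.27, 8.62 and 7.48 CPM in CR (animals 004, 007, 008, 011 and 012, in this order throughout). The lowest CR library, 004, was the neighbour of a Control library and still lay above all 5 Control values. On the log2 scale CD180 was higher in CR by 1.47 ± 0.15 (SE, n = 5 per arm, edgeR adjusted p = 0.0048). With neighbours summed the difference was 1.44 for CD180, 0.97 for CD84 and 1.07 for MAMU-DMA, each at an edgeR adjusted p of 0.55. CD84, a receptor of the SLAM family that binds itself on leukocytes, was higher by 0.99 ± 0.10 (edgeR adjusted p = 0.0048), at 34.4 ± 3.36 CPM against 17.3 ± 2.07 (SD, n = 5 per arm). CLEC7A, the receptor for fungal beta-glucans, measured 1.40, 0.762, 0.852, 1.31 and 1.78 CPM in Control and 5.42, 4.03, 5.29, 3.38 and 3.16 CPM in CR. These are low levels, and the lowest CR library, 012, lay above the highest Control library, 010 (log2 difference 1.80 ± 0.26, edgeR adjusted p = 0.036). SYK, the kinase that CLEC7A and other immune receptors signal through, was higher by 0.83 ± 0.13 (edgeR adjusted p = 0.043). IGSF6, an immunoglobulin-type receptor of myeloid cells, was higher by 1.44 ± 0.23 (edgeR adjusted p = 0.043).

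MPEG1, a pore-forming protein of macrophages, measured 11.9, 7.84, 6.93, 20.1 and 16.4 CPM in Control and 51.8, 33.1, 34.9, 40.8 and 33.6 CPM in CR. The Control values split by neighbour pair, with 005 and 006 lowest and 009 and 010 highest, and 004 was the highest library of all. MPEG1 stood at the edge of the threshold (edgeR adjusted p = 0.04999), as did FERMT3, which activates integrins in blood cells (adjusted p = 0.04999), SERPINB9, an inhibitor of granzyme B (adjusted p = 0.04999), and AAK1, a kinase of clathrin-mediated uptake (adjusted p = 0.04999). Just outside it, each at an adjusted p of 0.0501 (edgeR), lay FCGR3B, MS4A7, LCP1, MYOF and LAPTM5, with higher values in CR, and SARS2, a mitochondrial seryl-tRNA synthetase, with lower values. Of these, FCGR3B is an antibody receptor, MS4A7 a macrophage membrane protein and LCP1 the leukocyte plastin. CD4, the helper T cell coreceptor that primate macrophages also carry, measured 19.4, 19.95, 20.3, 26.1 and 26.8 CPM in Control and 42.6, 35.8, 36.1, 44.6 and 38.4 CPM in CR. Its arms did not overlap (log2 difference 0.81 ± 0.12, edgeR adjusted p = 0.036). The T cell receptor chain gene CD3E, which CD4+ T cells share with all T cells, overlapped between the arms, at 1.95 to 5.78 TPM in Control and 2.54 to 10.7 TPM in CR. The ectonucleotidase ENTPD1 (CD39) was higher by 0.71 ± 0.11 (edgeR adjusted p = 0.044). The secreted adenosine deaminase CECR1 (ADA2), which works downstream of it on adenosine, was higher by 1.58 ± 0.26 (edgeR adjusted p = 0.044).

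**Figure D2:**
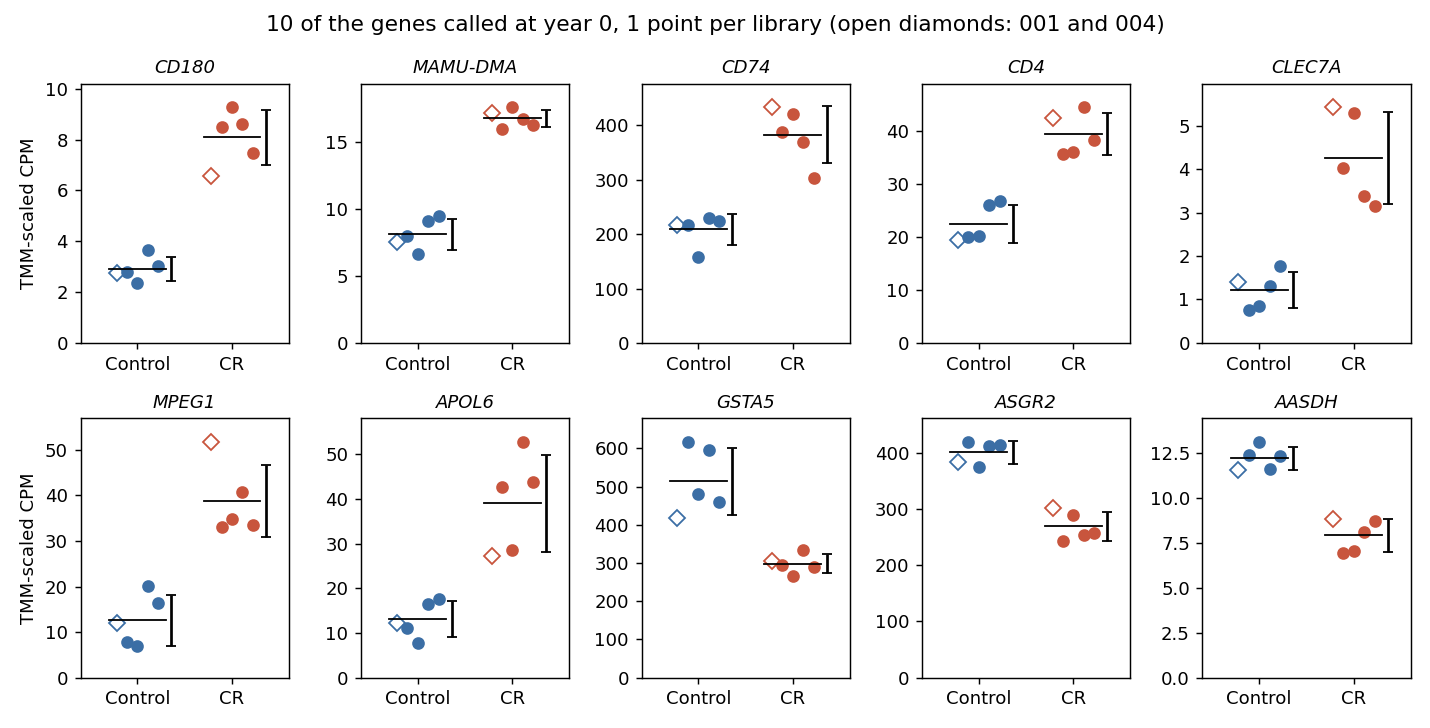
TMM-scaled CPM of 10 called genes in each year 0 library, with the mean as a line and the SD as a bar (n = 5 per arm). In every panel the 5 CR points lie on 1 side of the 5 Control points, and 004 and 001, the pair that spans the arms (open diamonds), fall with their own arm.

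Genes of MHC class II presentation were higher in the same arm as the myeloid receptors. MAMU-DMA, the alpha chain of the peptide exchanger DM, measured 7.53, 7.96, 6.62, 9.11 and 9.47 CPM in Control and 17.2, 16.0, 17.6, 16.8 and 16.3 CPM in CR. The CR values lay within a narrow band, and the arms were far apart against the spread inside either (log2 difference 1.04 ± 0.11, edgeR adjusted p = 0.0048). CD74, the invariant chain and the most abundant transcript of the group, measured 216, 216, 159, 229 and 223 CPM in Control and 433, 388, 421, 369 and 303 CPM in CR. Within Control 006 stood below the other 4 libraries, and 012 was the lowest of CR (log2 difference 0.88 ± 0.13, edgeR adjusted p = 0.04). MAMU-DQB1, a class II beta chain, was higher by 1.44 ± 0.21 (edgeR adjusted p = 0.037), and its counts may be shared with near-identical MHC copies. CIITA, the coactivator that switches on class II genes, was higher by 1.19 ± 0.21 and missed the threshold (edgeR adjusted p = 0.053). Of the 12 tested genes of the class II list, 10 were higher in CR. Of the 12, 3 were called higher (0.211% over all genes) and 8 had every CR library above Control (2.9% over all genes). The median log2 difference of the list was 1.04, against -0.01 over all genes tested. The mean difference was 0.88, and 0.93 with neighbours summed.

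The remaining higher genes came from several compartments. APOL6, an interferon-inducible apolipoprotein L gene, measured 12.3, 11.1, 7.70, 16.4 and 17.6 CPM in Control and 27.2, 42.5, 28.7, 52.7 and 43.7 CPM in CR. Its 2 lowest CR libraries, 004 and 008, were still clear of the highest Control library (log2 difference 1.58 ± 0.25, edgeR adjusted p = 0.044). Among lysosomal genes, the alpha-mannosidase MAN2B1 was higher by 0.64 ± 0.09 and the prolylcarboxypeptidase PRCP by 0.97 ± 0.16 (edgeR adjusted p = 0.032 and 0.048). RAB11FIP5, an effector of recycling endosomes, was higher by 1.05 ± 0.15, and the autophagy receptor OPTN by 0.62 ± 0.10 (adjusted p = 0.036 and 0.044). IGF2BP3, an RNA-binding protein of fetal tissue, was higher by 1.67 ± 0.22 but at low levels, from 0.297 to 0.423 CPM in Control and from 0.935 to 1.43 CPM in CR. The taurine transporter SLC6A6, the G protein subunit GNB4, the cadherin mannosyltransferase TMTC1, the signalling scaffold SASH1, SNN, SEL1L3 and GAS7 completed the 28, with log2 differences from 0.62 (GNB4) to 1.40 (SEL1L3).

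The 4 genes called lower in CR include a pair known from hepatocytes, GSTA5 and ASGR2. None of the 4 was called with the neighbour pair as a random block (voom adjusted p from 0.07 in AASDH and ATP13A4 to 0.085 in GSTA5), nor by edgeR with no filter on low counts. GSTA5, a glutathione transferase, measured 418, 617, 481, 597 and 459 CPM in Control and 305, 295, 266, 335 and 289 CPM in CR (log2 difference -0.79 ± 0.13, edgeR adjusted p = 0.044). The lowest Control library was 001 and its neighbour 004 lay inside the CR range. GSTA1, a near-identical gene with which GSTA5 may share reads, differed by -0.77 ± 0.19 without passing the test (edgeR adjusted p = 0.084). ASGR2, a subunit of the receptor that clears desialylated glycoproteins, measured 382, 419, 375, 412 and 413 CPM in Control and 302, 243, 288, 253 and 256 CPM in CR (log2 difference -0.57 ± 0.09, edgeR adjusted p = 0.044). The partner subunit ASGR1 differed in the same direction by -0.43 ± 0.12 and did not pass (edgeR adjusted p = 0.1). AASDH, named for aminoadipate-semialdehyde dehydrogenase, measured 11.6, 12.4, 13.1, 11.6 and 12.3 CPM in Control and 8.85, 6.92, 7.05, 8.12 and 8.75 CPM in CR, with 004 and 012 the highest of CR (log2 difference -0.62 ± 0.10, edgeR adjusted p = 0.044). The P-type ATPase ATP13A4 differed by -0.66 ± 0.11 (edgeR adjusted p = 0.048).

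Across whole lists, markers of macrophages and Kupffer cells were higher in CR in 19 of 20 tested genes. Of the 20, 1 (MPEG1) was called higher (0.211% over all genes) and 9 had every CR library above Control (2.9% over all genes). The summed level of the list ran from 1217 to 1909 TPM in Control and from 2115 to 2621 TPM in CR. On log2(TPM + 1) the median difference of all genes was 0.12, against -0.01 on TMM-scaled counts. Relative to that median, the mean difference of the macrophage list was 0.79 on log2(TPM + 1) and 0.85 on TMM-scaled counts. CD5L, a secreted macrophage protein, stood at 349.6 ± 33.1 CPM against 178 ± 50.2 (SD, n = 5 per arm), a log2 difference of 0.97 ± 0.18 that missed the threshold (edgeR adjusted p = 0.056). The defining marker CD163 ran from 20.2 to 57.4 TPM in Control and from 61.0 to 81.0 TPM in CR, without overlap on that scale. On TMM-scaled CPM, the scale of the tests, its arms overlapped (log2 difference 0.74 ± 0.28, edgeR adjusted p = 0.2). CD14, the 1 marker lower in CR, stood at 355 ± 21.7 CPM against 367 ± 52.8 (SD, n = 5 per arm). TIMD4, counted as higher, hardly differed, at 1.87 ± 1.14 CPM against 1.86 ± 2.35 (SD, n = 5 per arm). Its log2 difference was 0.0071 ± 0.99 (SE). Myeloid receptors and their adaptors were higher in 28 of 29 genes, with 4 called and 13 without overlap, to be read against the same shares. Both lists were chosen with earlier results of these data known, so their shares are a description and no independent test. The median log2 difference was 0.74 for macrophage markers and 0.64 for myeloid receptors. The mean differences were 0.84 and 0.73, and 0.88 and 0.79 with neighbours summed. Control was not uniform. Relative to the mean of all 10 libraries, the mean log2 level of the macrophage list was -0.67, -0.87 and -0.84 in 001, 005 and 006 and 0.19 and 0.09 in 009 and 010, and the 5 CR libraries, from 0.30 to 0.52, lay above all of Control.

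Other blood cell lists were less even. Neutrophil and monocyte markers were higher in 6 of 8 genes with a median of 0.80, 0 called, and animal 009 had the highest score of all 10 libraries. LYZ, the lysozyme gene, stood at 153 ± 29.1 CPM against 68.7 ± 22.3 (SD, n = 5 per arm; edgeR adjusted p = 0.062). S100A9, of the same list, was lower in CR, at 2.24 ± 0.798 CPM against 4.26 ± 3.82 (SD, n = 5 per arm). Its arms overlapped (edgeR adjusted p = 0.38). Markers of natural killer cells were higher in 10 of 10 genes and T cell markers in 12 of 14. CD4, which macrophages also carry, was the 1 call among both lists (0.211% over all genes). In each list 1 gene had every CR library above Control (2.9% over all genes). The highest score of each of these lists belonged to 004. Without 004 the mean difference went from 0.47 to 0.25 for natural killer cell markers and from 0.37 to 0.20 for T cell markers. THEMIS, a T cell signalling gene, went the other way, at 3.01 ± 0.881 CPM against 7.02 ± 2.93 (SD, n = 5 per arm; edgeR adjusted p = 0.088). B and plasma cell markers were higher in 2 and lower in 3 of 5 genes, and their mean difference of 0.10 was -0.10 without 006. Interferon response genes were higher in 42 of 48, with a median of 0.48. Of the 48, 1 was called (0.211% over all genes) and 5 had every CR library above Control (2.9% over all genes). The mean difference of 0.42 was 0.25 without 004. Among them CXCL11, a chemokine gene, differed by 1.22 ± 0.25 and GBP1, a guanylate-binding GTPase, by 1.40 ± 0.34 (edgeR adjusted p = 0.065 and 0.086). In GBP1 the CR arm alone spanned 32.9 to 119 CPM.

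**Figure D3:**
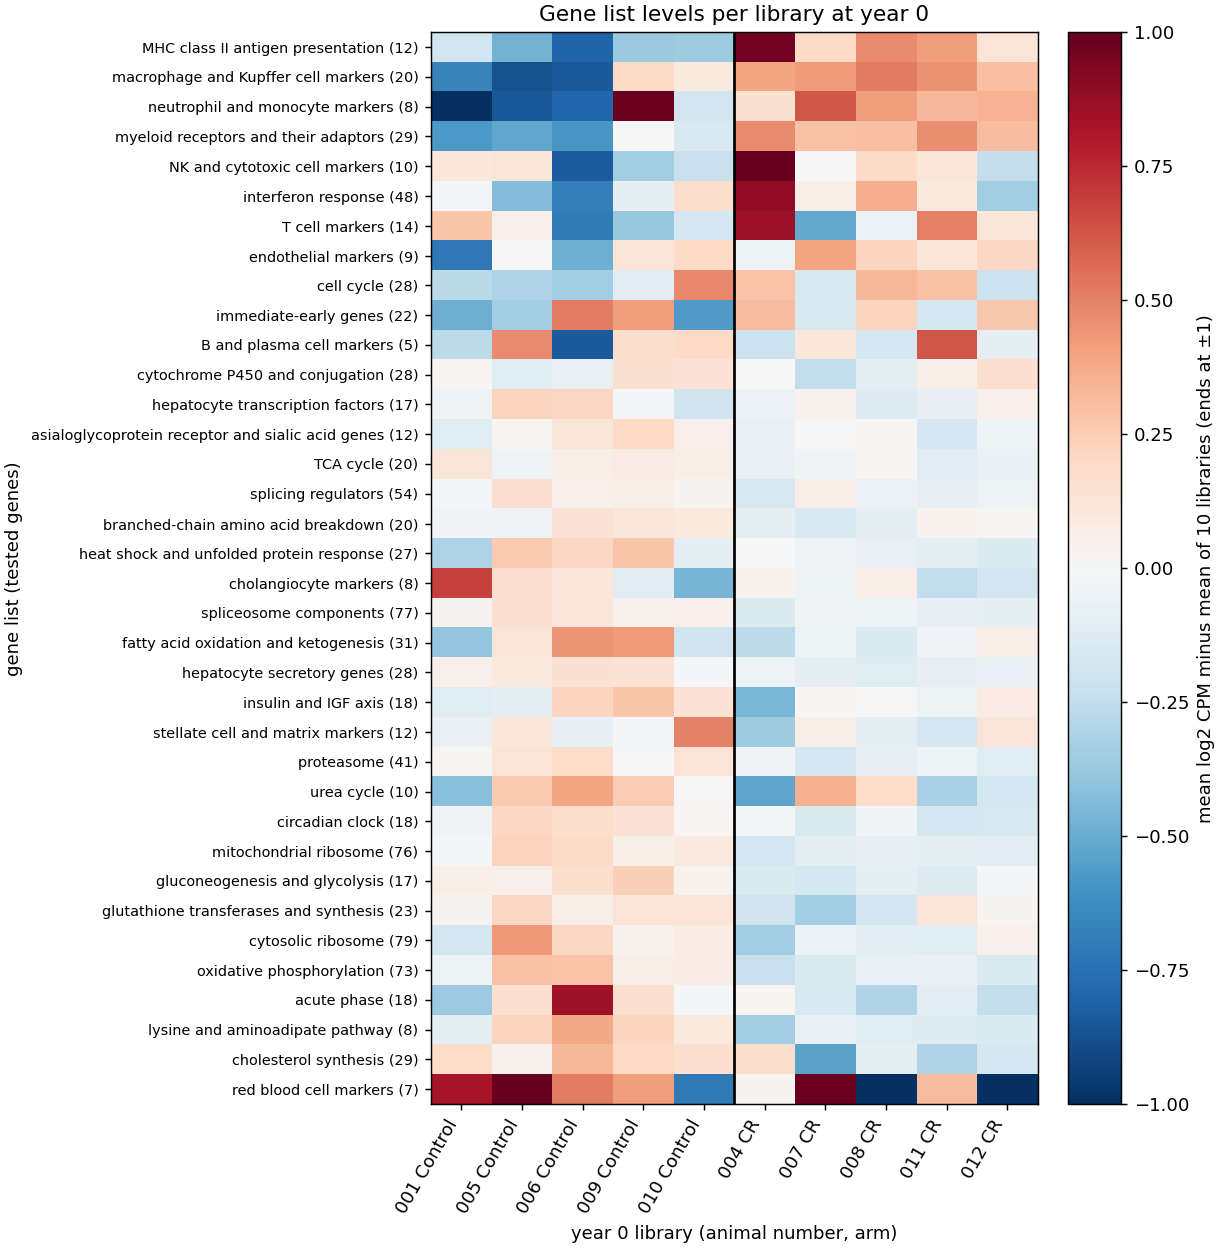
Mean log2 CPM of each gene list with at least 5 tested genes in each year 0 library, as the difference from the list's mean over the 10 libraries, with lists ordered by the difference between arms. The top 4 lists are red in all 5 CR libraries, most metabolic lists are pale, and 004 holds the highest scores for NK cell, interferon and T cell genes.

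Genes of energy metabolism and of protein synthesis lay slightly lower in CR, with no call among oxidative phosphorylation, ribosome, proteasome or spliceosome genes. Genes of oxidative phosphorylation, the mitochondrial respiratory chain and ATP synthase, were lower in 73 of 73 genes, 15 of them without overlap (20.5%, against the 2.1% of all genes). The median difference was -0.29, and no member passed the edgeR test. ATP5H, a subunit of ATP synthase, stood at 144 ± 7.57 CPM against 194 ± 19.3 (SD, n = 5 per arm; log2 difference -0.43 ± 0.09, edgeR adjusted p = 0.069). NDUFB7, of complex I, and UQCRFS1, the Rieske protein of complex III, differed by -0.37 ± 0.09 and -0.33 ± 0.08 (edgeR adjusted p = 0.082 and 0.083). All 79 cytosolic ribosome genes and 70 of 76 mitochondrial ribosome genes were lower, with medians of -0.22 and -0.23. Proteasome subunits were lower in 36 of 41 and spliceosome components in 69 of 77. On log2(TPM + 1) the differences of single genes moved up by a median of 0.15 over all genes. Relative to the median of all genes, the mean difference of the oxidative phosphorylation list was -0.22 on that scale and -0.25 on TMM-scaled counts.

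Lists of hepatocyte functions held more genes lower than higher in CR, but not in every gene or on every scale. Of 28 secreted plasma protein genes 21 were lower (median -0.19), among them the fibrinogen chain FGA (-0.42 ± 0.14, edgeR adjusted p = 0.16) and hemopexin, HPX (-0.46 ± 0.16, adjusted p = 0.17). The gene of albumin, the main plasma protein, overlapped between the arms and had the higher median in CR, at 121420.0 TPM against 97985 TPM in Control. The summed level of the list had a median of 316117 TPM in CR and 314450.0 TPM in Control, and its mean difference was -0.17 on TMM-scaled counts and -0.00476 on log2(TPM + 1). Cholesterol synthesis genes were lower in 26 of 29, led by the sterol reductase TM7SF2 (-0.57 ± 0.11, edgeR adjusted p = 0.062) and the sterol dehydrogenase NSDHL (-0.70 ± 0.17, adjusted p = 0.088). Glutathione transferases and synthesis were lower in 20 of 23, gluconeogenesis and glycolysis in 16 of 17, and fatty acid oxidation and ketogenesis in 27 of 31. GAPDH, often taken as a constant gene, stood at 677 ± 149.6 CPM against 1084 ± 177 (SD, n = 5 per arm; log2 difference -0.68 ± 0.16, edgeR adjusted p = 0.085). The lysine and aminoadipate list was lower in 8 of 8, with AASDH its 1 call (0.0302% called lower over all genes). In 3 of the 8 every CR library lay below Control (2.1% over all genes). Of the lists without calls that bear on nutrition, urea cycle genes were lower in 9 of 10, branched-chain amino acid breakdown in 15 of 20, TCA cycle genes in 14 of 20, insulin and IGF genes in 13 of 18 and cytochrome P450 and conjugation genes in 22 of 28. The mean difference of the P450 list was -0.05, but 0.01 without 007 and 0.12 on log2(TPM + 1). Without 004 the urea cycle went from -0.20 to -0.09 and insulin and IGF genes from -0.17 to -0.08. On log2(TPM + 1), before the shift of all genes is taken off, branched-chain breakdown stood at 0.05 and the TCA cycle at 0.05. Fatty acid oxidation went from -0.16 to 0.00244 on that scale and was -0.07 without 006. The forkhead factor FOXO1 stood at 35.7 ± 8.02 CPM against 66.9 ± 28.4 (SD, n = 5 per arm; edgeR adjusted p = 0.15), and the clock repressor NR1D1 at 9.21 ± 4.16 CPM against 25.4 ± 15.9 (adjusted p = 0.2).

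No endothelial, stellate cell or red blood cell marker passed the edgeR test. Endothelial markers were higher in 8 of 9 genes (median 0.37), and 8 of 12 stellate cell and matrix markers were lower (median -0.20). The summed level of the endothelial markers overlapped between the arms, from 203 to 383 TPM against 351 to 451 TPM (Control against CR). Red blood cell markers, a sign of blood in the biopsy, were lower in 6 of 7 genes (median -1.10). Their summed level ran from 575 to 2084 TPM in Control and from 259 to 1532 TPM in CR. The alpha globin gene HBA1, which has near-identical copies, stood at 22.2 ± 9.63 CPM against 65.0 ± 34.8 (SD, n = 5 per arm; edgeR adjusted p = 0.13). The difference of the red blood cell score was -1.26 with all animals and -1.66 to -0.79 when 1 animal was left out (007 and 012 at the ends), and -0.77 with neighbours summed. The part of blood or of cell make-up in the results on macrophage and class II genes was not tested.

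The pair of 001 and 004 gave a comparison of the arms between the most alike libraries of different arms, with 1 library on each side and so without a test. In all 32 called genes the difference of 004 from 001 had the direction of the arms, which the separation of the arms fixes. MPEG1 differed inside the pair by 2.12 on the log2 scale, CLEC7A by 1.93, CD180 by 1.23, MAMU-DMA by 1.19, GSTA5 by -0.46 and ASGR2 by -0.34. Over whole lists, the median difference inside the pair was 1.06 for macrophage markers, 0.98 for myeloid receptors, 1.24 for class II presentation and 0.91 for interferon genes. Each lay above the median between the arms, but 004 had the highest score of all 10 libraries for myeloid receptors, class II presentation and interferon genes. The median inside the pair was -0.16 for oxidative phosphorylation and -0.18 for the cytosolic ribosome, smaller than between the arms, against -0.02 over all 13244 genes. Scores of the arms did not overlap for macrophage, myeloid receptor, class II and oxidative phosphorylation genes, which fixes the direction of their mean inside the pair too. Several hepatocyte lists differed little or went the other way inside the pair: -0.02 for cholesterol synthesis, 0.06 for fatty acid oxidation, 0.39 for the acute phase and 0.31 for heat shock and the unfolded protein response, whose medians between the arms were -0.27, -0.14, -0.43 and -0.13. Without 001 and 004, edgeR called 279 genes, 31 of the 32 among them, which is no separate support since the 32 were picked with these libraries included.

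The year 0 differences were followed to the second biopsy, when the arms had been on their diets for 2 years. At year 2, 0 of 13345 genes (0%) were called between the arms with edgeR (lowest adjusted p = 0.66), and 938 had an unadjusted p under 0.05. Of the 28 genes higher in CR at year 0, 9 were higher at year 2, and their median log2 difference was 0.89 at year 0 and -0.20 at year 2. MAMU-DMA stood at 12.7 CPM in CR and 17.3 CPM in Control at year 2, a log2 difference of -0.44 ± 0.34 (SE, n = 5 per arm, edgeR adjusted p = 0.7). CD180 differed by 0.06 ± 0.50 and OPTN by -0.43 ± 0.17. IGF2BP3 (1.26 ± 0.59) and SNN (0.51 ± 0.23) had the largest differences in the year 0 direction among the 28. Of the 4 lower genes 3 were lower at year 2, GSTA5 with a difference of -0.91 ± 0.38, and ATP13A4 was higher by 0.65 ± 0.35. The test of the change itself, with the animal of the labels as a block, called 0 of 13730 genes (0%, edgeR), with 941 at an unadjusted p under 0.05 and 21 of the 32 among them. The lowest adjusted p of the change was 0.58. Among the genes at this value, OPTN, one of the 32, had a difference between years of -1.05 ± 0.21, and THEMIS, not one of them, had 2.36 ± 0.39 (SE), from -1.22 at year 0 to 1.19 at year 2. Genes called at year 0 had to be far apart there, so a smaller difference at year 2 is not by itself a change. The macrophage list, higher in 19 of 20 genes at year 0, was higher in 6 of 20 at year 2, and the class II list in 5 of 12.

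**Figure D4:**
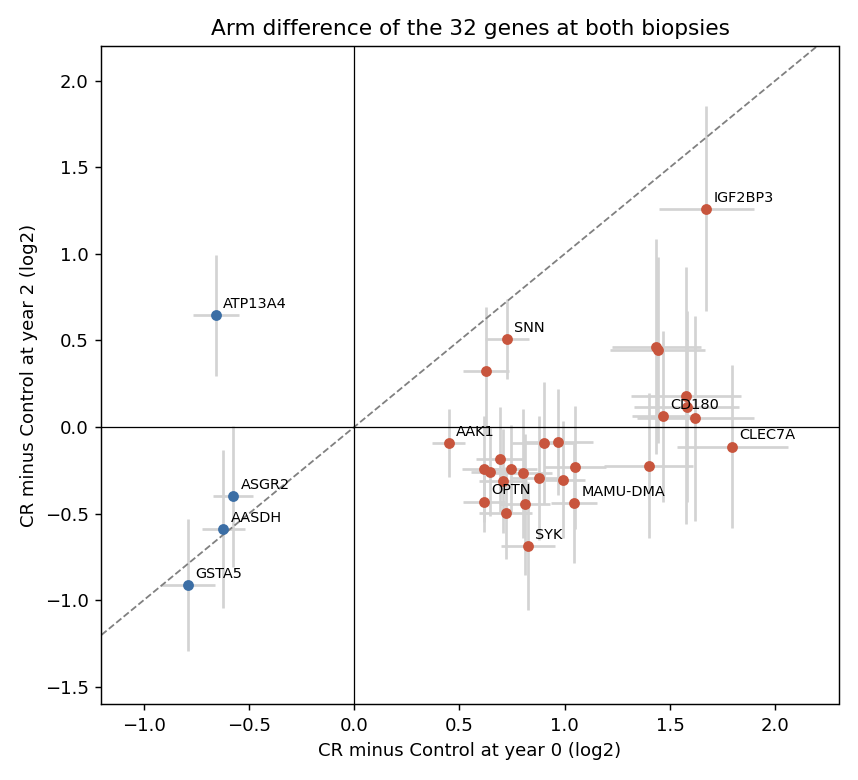
Log2 difference of CR from Control at year 0 (x axis) and at year 2 (y axis) for the 32 genes called at year 0, with the SE as grey bars and equal differences as a dashed line. Most of the 28 genes higher in CR at year 0 lie near or below 0 at year 2, while AASDH, GSTA5, ASGR2 and SNN lie nearest to the dashed line.

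Transcript shares, the percent of a gene's TPM given by each transcript, were tested with diffSpliceDGE of edgeR in 1021 genes with 2290 transcripts. By the Simes p per gene 0 (0%) were called, with a lowest adjusted p of 0.93 and 13 genes at an unadjusted p under 0.05. The F test per gene called 1, MID2. ABR had the largest shift in mean share of the 6 genes of lowest p, which are named by that rank in the same comparison and so described only. Its transcript 04 took 72.8, 59.1, 58.9, 62.4 and 60.8% in Control and 84.6, 88.1, 82.6, 93.7 and 90.1% in CR. Transcript 02 took 13.1, 30.1, 30.0, 26.2 and 25.5% in Control and was listed at 0 in 4 CR libraries, with 9.62% in 008. The arms did not overlap for either transcript (Simes adjusted p = 0.93), as for 29 of the 2290 transcripts tested (1.27%). The exact permutation p was 0.0079 for each (two-sided, the smallest this design allows). It adds no separate support, since ABR was picked by its rank in the same comparison. When 008 was left out, ABR was called (adjusted p = 8.5e-05, diffSpliceDGE). The level of ABR itself was 9.74 CPM in CR and 6.53 CPM in Control.

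The other 5 genes overlapped between the arms. MSMO1, a sterol oxidase of cholesterol synthesis, gave 13.2, 52.5, 28.0, 8.80 and 21.1% of its TPM as transcript 01 in Control and 4.52, 13.96, 10.5, 8.17 and 7.01% in CR. The Control spread came from 005, 006 and 010, and 001 and 009 lay inside the CR range. PNPLA8, a mitochondrial phospholipase, gave 12.4, 55.0, 28.3, 6.77 and 12.3% as transcript 01 in Control and 3.51, 1.01, 0.231, 0 and 9.24% in CR. In TFR2, the hepatic transferrin receptor, transcript 01 was highest in 005 (31.2%) and between 2.50% and 10.4% elsewhere. WASF2, an actin nucleation regulator, gave 76.3% ± 12.4 as transcript 02 in Control and 95.2% ± 3.96 in CR (SD, n = 5 per arm). In ABCE1, a ribosome recycling factor, only 012 differed, with 54.9% of transcript 02 against at most 3.06% in the other 9 libraries, so that its rank rests on 1 library. In 005 transcripts 01 of MSMO1, TFR2 and PNPLA8 were all at their highest share of the 10 libraries. Of the 32 genes called in level, 4 (MAN2B1, ENTPD1, CECR1 and GAS7) had more than 1 testable transcript, and the mean share of the main transcript of MAN2B1 was 84.9% ± 2.82 in Control and 82.9% ± 1.99 in CR (SD, n = 5 per arm). With neighbours summed, diffSpliceDGE called 5 of 1108 genes (GTDC1, PLSCR3, TC2N, NCKAP1L and ZFYVE27), none of them among the 6. The genes tested differed between the fits. Of these calls only ZFYVE27 was among the 1021 genes tested over the 10 libraries, where its unadjusted Simes p was 0.51.

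**Figure D5:**
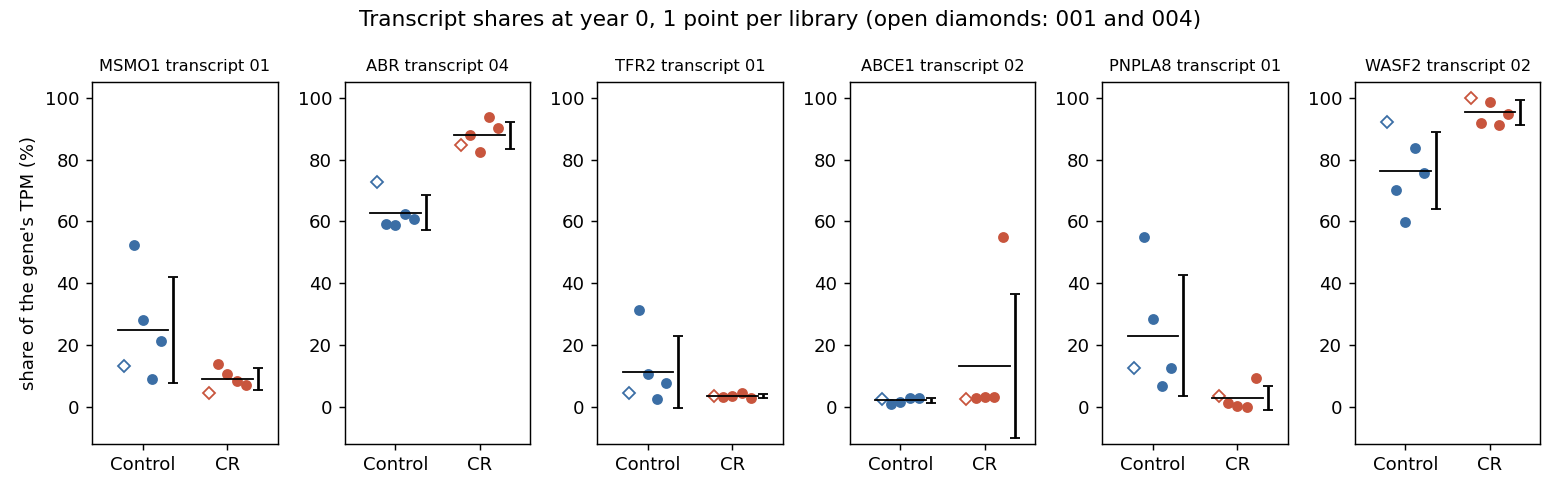
Share of a gene's TPM (%) given by the transcript named above each panel in each year 0 library, with the mean as a line and the SD as a bar (n = 5 per arm). The arms separate in ABR, whereas MSMO1, TFR2 and PNPLA8 are drawn apart by Control libraries such as 005, and ABCE1 by 012 alone.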

How the data were processed

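Gene and transcript levels were measured by RNA-seq of liver. The deposited tables hold, per the file headers, estimated counts (expected counts), TPM and FPKM for each gene and transcript, made by the authors. The FPKM values deposited by the authors entered only a check of effective transcript length per library, and no result above rests on them. STAR, RSEM, DESeq2 and the build Mmul_8.0.1 (rheMac8) are named, per the submitters' processing notes; for their roles and versions and for the annotation, nothing is stated in these sources.

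Estimated counts were rounded, filtered with filterByExpr, scaled by TMM and tested with edgeR 4.0.16 (robust quasi-likelihood F test, R 4.3.3), at a Benjamini-Hochberg adjusted p of 0.05 over all genes tested. The year 0 arms were compared unpaired over their 10 libraries only. Printed CPM are TMM-scaled. Transcripts with a count of at least 10 in 5 libraries and a share of at least 5% entered diffSpliceDGE. Single shares were compared by an exact two-sided permutation test. The scripts were tested on simulated data.

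Alternatives were RLE scaling, no filter, DESeq2 1.42.0, limma 3.58.1 on log2(TPM + 1) and log2(TPM + 0.1), a fit over all 20 libraries and leaving out each animal. Summing neighbours, voom with and without a pair block, and leaving out 001 and 004 were added after seeing the data. The animals differ between arms, so no replicate pairs them. For the change to year 2 the animal of the labels was the block; deviations of an animal's 2 libraries correlated between -0.25 and 0.16, above 0.1 in 2 of 10 animals.

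Genes named are those called, up to 4 members of each list with the smallest p, the 6 genes with the smallest Simes p for usage, and defining cell markers. Others, such as ASGR1, GSTA1 and the genes just past the threshold, were chosen after their values were seen. The members and the 39 gene lists were chosen with earlier results of these data known. The p-values measure the spread between these libraries, which the labels name as separate animals. No sequences are printed.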

Additional observations from a re-analysis of the deposited data

Results flagged for a closer look

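In 136 groups of 5 libraries, 5 had 1 library far from the other 4 by Dixon's test; chance gives such a flag in about 1 in 20 groups. Animal 004 accounted for 4 of them. In CR it was lowest for MAN2B1, at a log2 CPM of 6.116, against 6.38 for the next library. It was also lowest in CR for the score (mean log2 CPM relative to the mean of the 10 libraries) of the lysine and aminoadipate list (-0.3511), the mitochondrial ribosome list (-0.1785) and the insulin and IGF list (-0.4586). In Control, 006 was lowest for CD74, at a log2 CPM of 7.309, against 7.75 for the next library.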

How the results depend on the processing

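Against 32 genes called between the year 0 arms, edgeR called 13 with no filter on low counts and 0 in a fit over all 20 libraries. DESeq2 called 780, and limma 384 on log2(TPM + 1) and 356 on log2(TPM + 0.1). Leaving out 1 animal gave 3 to 340 calls. Of the alternatives added after seeing the data, summed neighbours gave 0, voom with the pair block 52 and the fit without 001 and 004 gave 279. RLE scaling gave 33 and voom with no block 47. None of the 4 genes lower in CR was called with the pair block or with no filter. None of the 32 called genes changed direction, but lists did: 2 of 38 when 1 animal was left out (B and plasma cells, from 0.10 to -0.10 without 006, and cytochrome P450, from -0.05 to 0.01 without 007), 1 without 001 and 004 (immediate-early genes, from 0.18 to -0.02), and 3 on log2(TPM + 1) relative to all genes. No list did with neighbours summed or RLE scaling. For transcript usage, 0 of 1021 genes were called in the fit as reported and 1 by the F test. Over all 20 libraries 2 of 1180 genes were called, and with neighbours summed 5 of 1108. When an animal was left out, 0 to 1 were called. For the change of the arm difference, 0 genes with the animal as replicate block, 0 were called with no replicate block (lowest adjusted p = 0.092, edgeR), and leaving out 1 animal gave 0 to 1 call, EPHB1 without 001. No paired analysis of the year 0 arms was possible because the arms hold different animals. The causes of these differences between settings were not tested. Depth of 24712214 to 31440640 counts limits genes near 1 CPM, such as IGF2BP3 and CLEC7A.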
